A study of Mus musculus with 10 samples.

Results

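The genes described here are 9 mouse genes of the NRF2 antioxidant pathway, taken as a named list of symbols from the 55357 genes of the series. They are Nfe2l2 and Keap1, which encode the transcription factor and its inhibitor, and the target genes Slc7a11, Gclc, Gclm, Gsr, Txnrd1, Srxn1 and Nqo1. All 9 were found in both deposited count tables. The list was not chosen on measured values, although earlier results from the same samples were known.

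The series measured poly(A) RNA in 6 hearts of Cd163-/- mice and in 4 libraries of cultured peritoneal macrophages. CD163 is the scavenger receptor through which macrophages take up haptoglobin-haemoglobin complexes. The mice were male, on a C57BL/6 background. Of the hearts, 3 came from mice given saline and 3 from mice given IL-10, that is recombinant mouse interleukin-10, an anti-inflammatory cytokine, injected subcutaneously at a dose of 50 µg/kg/day on set days from day 0 to day 27 after aortic constriction. All 6 hearts share the Cd163-/- genotype by their labels. The design text describes the constriction in mice 8 weeks old, the labels of single hearts do not state it, and no wild-type or sham-operated heart was analysed here. The macrophage groups were wild type (n = 2) and Cd163-/- (n = 2). Both were elicited with thioglycolate and kept if they adhered. Both then received dexamethasone, a synthetic glucocorticoid, at 100 nM for 48 h, and no untreated macrophages were analysed here.

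As background, NRF2 (gene Nfe2l2) is held low in resting cells because KEAP1 hands it to a CUL3 ubiquitin ligase for degradation. Oxidants and electrophiles modify KEAP1, NRF2 then accumulates, pairs with small MAF proteins and binds antioxidant response elements near genes for glutathione synthesis, thioredoxin reduction and quinone detoxification. In macrophages the pathway is known for limiting oxidative damage and inflammatory gene expression, and in the heart for protecting cardiomyocytes under load. Most of this control acts on the NRF2 protein, which RNA counts do not measure.

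The promoter sequences of the members are shown first because the pathway is defined by NRF2 binding to antioxidant response elements near its target genes. Not every member window held a match to the core of that element. Windows from 250 bases before to 50 bases after each RefSeq start (GRCm38.p6) were found for 7 of the 9 genes, with 9 windows in all because Txnrd1 has 3. The core searched was TGACNNNGC on either strand (GCNNNGTCA in reverse), in which N is any base. It occurred in 12.4% of all 32851 such windows and in 4 of the 9 member windows, those of Nfe2l2, Gclm, the second start of Txnrd1, and Srxn1. Capitals mark the match, each sequence reads 5′ to 3′ on the gene's strand, and the match in the last 3 lies on the opposite strand.
Nfe2l2, chr2:75704885-75704913: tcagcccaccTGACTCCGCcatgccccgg
Gclm, chr3:122245393-122245461: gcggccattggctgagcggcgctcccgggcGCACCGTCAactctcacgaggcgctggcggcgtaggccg
Txnrd1, chr10:82859084-82859152: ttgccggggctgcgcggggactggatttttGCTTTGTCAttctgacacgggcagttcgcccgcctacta
Srxn1, chr2:152105542-152105570: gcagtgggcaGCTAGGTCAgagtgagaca
The match begins 240 bases before the start in Nfe2l2, 134 before it in Gclm and 92 before it in Txnrd1, and at base 29 after it in Srxn1. The longer stretches first taken around the Nfe2l2 and Srxn1 matches touched an exon of the GENCODE annotation, so shorter ones are printed. For Nfe2l2 that exon is not its own, as the annotated gene ends at 75704641. The AP-1 site TGANTCA, which resembles the core, occurred in 7.81% of all windows. Among the members it had 2 matches, both in the window of Srxn1, beginning 102 and 45 bases before the start. They overlapped none of the matches above. With the bases after it, the match at 45 reads TGAGTCAgc, which differs from the antioxidant core by a G for a C.

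Slc7a11 was the member with the largest difference between the macrophage groups, and its window is shown for a second element. The core TGATGCAA (TTGCATCA in reverse), read by ATF4 with a C/EBP partner in the response to amino acid shortage, occurred in 0.895% of all windows. Slc7a11 was the one member with a match and held 2 of them, in opposite orientation with 11 bases between them, an arrangement of at least 2 matches that 2 of the 32851 windows had. No match to the antioxidant core or the AP-1 site lay in this window.
Slc7a11, chr3:50443643-50443689: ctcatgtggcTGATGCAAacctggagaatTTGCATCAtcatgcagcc
A match describes letters in a window of fixed length, not binding, and elements outside these windows were not searched.

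Total counts were 13.5 to 14.9 M per heart library and 16.7 to 18.6 M per macrophage library (M for mega), and mitochondrially encoded genes held 33.7% to 39.4% and 2.43% to 3.12% of them. Cd163 itself had 352 and 205 counts in wild-type macrophages and 9 and 14 in the libraries labelled Cd163-/-. The hearts had 34 to 57 counts, or 2.83 to 4.29 CPM, above the 0.344 and 0.605 CPM of Cd163-/- macrophages. Without a wild-type heart, the genotype label of the hearts cannot be checked from these counts. Cardiomyocyte markers summed to 51688 to 64366 CPM in hearts and 29.3 to 60.3 CPM in macrophage libraries. Macrophage markers summed to 20817 to 26815 CPM in the macrophage libraries, with none of 16 at 0. The macrophage libraries also held fibroblast markers, such as the collagen genes, at a summed 1410 to 1965 CPM in wild type and 3073 to 3979 CPM in Cd163-/-. CPM are counts per M counts of the library, scaled by TMM over all 10 libraries, and a floor of 3 counts was 0.115 to 0.261 CPM.

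Across the 4 groups, 7 of the 9 genes had their highest mean in wild-type macrophages. The exceptions were Keap1 and Nqo1, both highest in IL-10 hearts on this TMM scale. With library size alone the count of 7 stayed, but the place of Keap1 did not. Cd163-/- macrophages held 737 and 605 Keap1 counts in totals of 18.6 and 17.2 M. IL-10 hearts held 392, 381 and 454 in totals of 14.1, 14.8 and 14.4 M, a lower share. The ratio of the highest to the lowest group mean ran from 1.27 for Keap1, through 2.78 for Gclc and 5.08 for Nfe2l2, to 39.5 for Nqo1 and 875 for Slc7a11. The inhibitor was thus the member with the narrowest range over the groups, and the cystine transporter subunit the one with the widest.

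**Figure D1:**
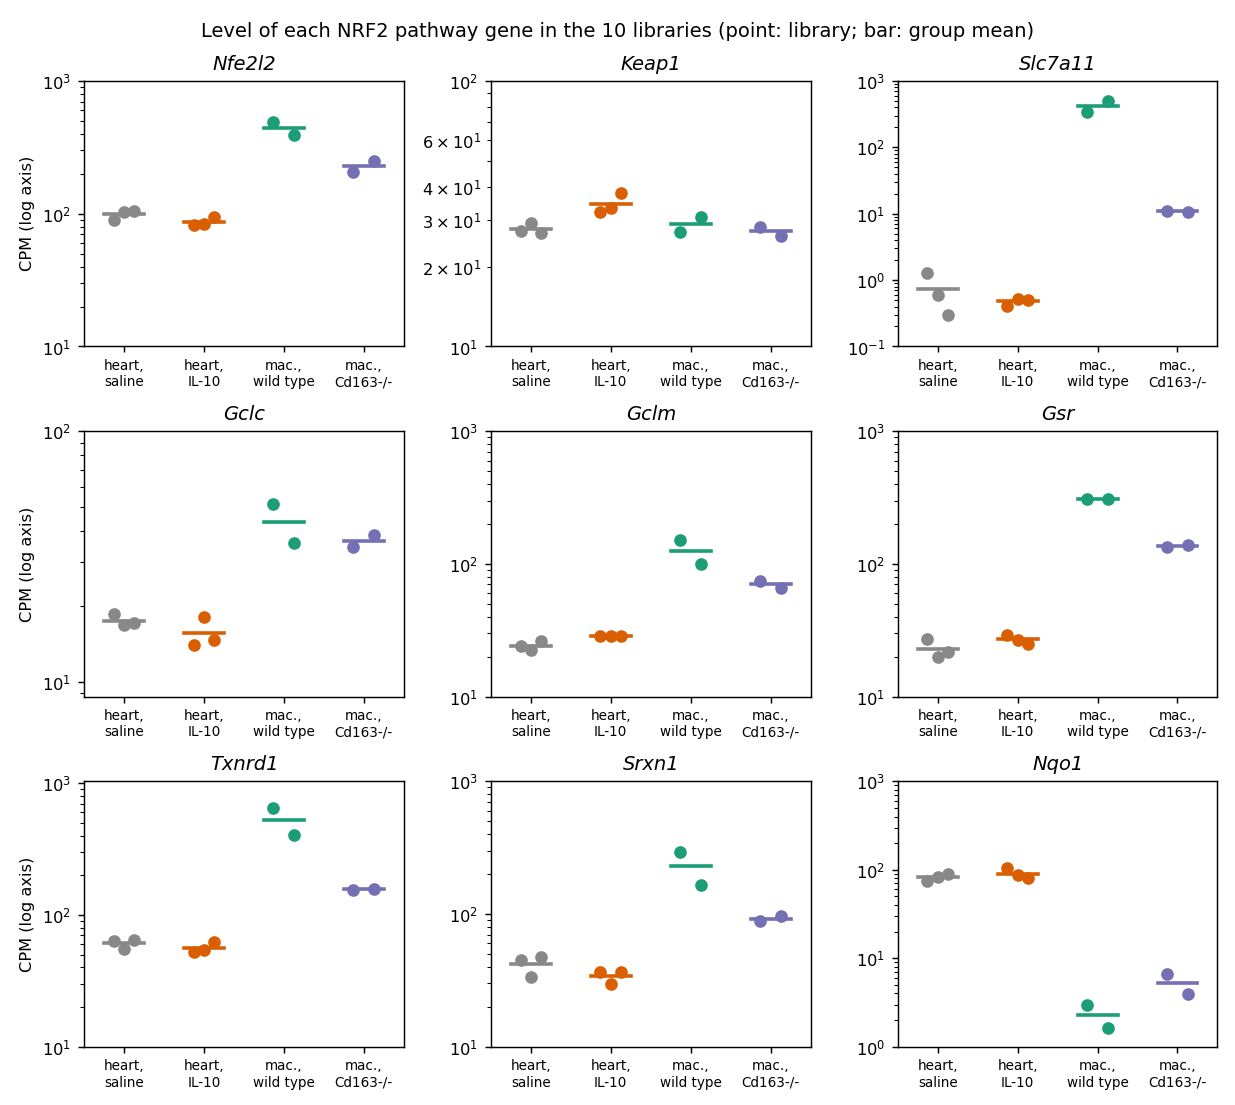
Level of each of the 9 genes in every library, in CPM on log axes whose ranges differ between panels (TMM over all 10 libraries), with a point per library and a bar at each group mean. The points for Keap1 lie between 26.1 and 37.7 CPM in all 10 libraries, those for Slc7a11 are at 340 and 494 CPM in wild-type and at 11.0 and 10.8 CPM in Cd163-/- macrophages, and those for Nqo1 are high in hearts and low in macrophages.

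Per kilobase of exon, the scale on which different genes can be set side by side, Nqo1 led the members in saline hearts with a level of 53.3 ± 5.13 CPM per kb (SD, n = 3), ahead of Nfe2l2 at 26.2 ± 2.24 and Srxn1 at 14.9 ± 2.63. Slc7a11 was last there at 0.0526 ± 0.0365 CPM per kb. In wild-type macrophages the order differed. Nfe2l2 at 116 ± 17.5 and Gsr at 111 ± 0.165 CPM per kb were highest, followed by Srxn1 at 81.4 ± 32.0 and Txnrd1 at 74.0 ± 24.1 (n = 2). The ranges of Nfe2l2 and Gsr overlapped, as did those of Srxn1 and Txnrd1. Nqo1 was last at 1.47 ± 0.593 CPM per kb. In Cd163-/- macrophages Slc7a11 took the last place with 0.781 ± 0.0122 CPM per kb. The length is that of all annotated exons, 13922 bases for Slc7a11, so transcripts shorter than the annotation are understated.

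The comparison of Cd163-/- with wild-type macrophages asks how loss of CD163 is reflected in cells under dexamethasone. In the Cd163-/- libraries 6 of the 9 genes were lower, namely Nfe2l2 and the target genes Slc7a11, Gclm, Gsr, Txnrd1 and Srxn1. None passed as higher, and Keap1, Gclc and Nqo1 did not pass the test. Slc7a11 was 37.9-fold lower, Txnrd1 had a log2 fold change of -1.73, and the other 4 lay between -1.30 and -0.82. Over all 13861 genes tested, 13.3% were called lower and 13.1% higher, or 26.4% in either direction (edgeR quasi-likelihood test, with p adjusted by Benjamini-Hochberg and a threshold of 0.05). The median log2 fold change was -0.94 over the members and 0.01 over all genes tested. Scaling by library size alone gave 1220 genes lower and 2662 higher in place of 1846 and 1817, and moved the median of all genes to 0.19. On that scale 5 members were called lower, Gclm being lost, and Nqo1 was called higher. Leaving out either Cd163-/- library left 1 in that group, and fewer genes were then called lower, among members and among all genes tested. Slc7a11 kept its call in both cases and Gsr only without replicate 2. The fold changes of the members not called stayed below 0, at -1.72 and -1.75 for Txnrd1, -1.24 and -1.36 for Srxn1, -0.81 and -1.09 for Nfe2l2 and -0.92 and -0.74 for Gclm without replicate 1 and without replicate 2, and at -1.12 for Gsr without replicate 1.

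Nfe2l2 (ENSMUSG00000015839, chromosome 2, 75675513 to 75704641) stood at 488 and 394 CPM in wild-type macrophages and at 205 and 250 CPM in Cd163-/- macrophages. The groups did not overlap, as was the case for 69.3% of all genes tested with 2 libraries a side. The transcription factor's transcript fell by 0.94 on the log2 scale (SE 0.18, 95% interval -1.37 to -0.50, edgeR quasi-likelihood adjusted p = 0.0152). Keap1 (chromosome 9, 21229730 to 21239361), the substrate adaptor that marks NRF2 for degradation, was at 27.1 and 30.8 CPM against 28.1 and 26.1 CPM. Its groups overlapped, and its log2 fold change of -0.07 had an interval of -0.40 to 0.25 (adjusted p = 0.708). With library size alone it was 0.10, so its sign depends on the scaling.

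Slc7a11 (chromosome 3, 49892526 to 50443614) encodes xCT, the subunit of the cystine/glutamate antiporter that brings in cystine for glutathione synthesis. It had 7292 and 9999 counts, or 340 and 494 CPM, in wild-type macrophages and 288 and 249 counts, or 11.0 and 10.8 CPM, in Cd163-/- macrophages. The Cd163-/- libraries lay close together and far below both wild-type libraries. The transcript fell by 5.24 on the log2 scale (SE 0.24, 95% interval -5.84 to -4.65, edgeR quasi-likelihood adjusted p = 0.000438). By its p it ranked 21 of the 13861 genes tested. It was called under all 12 alternatives, with log2 fold changes between -5.50 and -4.95. Slc3a2, the heavy chain that pairs with xCT at the membrane, was at 257 and 273 CPM against 186 and 193 CPM. Slc3a2 thus fell by 0.47 on the log2 scale (SE 0.13, edgeR adjusted p = 0.0429), and the call was lost without either Cd163-/- library, without wild-type replicate 2, with the replicate number as a block and with library size alone (adjusted p = 0.0739 to 0.237).

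Of the members that make or reduce glutathione, Gclm and Gsr were called lower and Gclc was not. Gclc (chromosome 9, 77754535 to 77794485), the catalytic subunit of the enzyme that joins glutamate and cysteine, was at 51.0 and 35.7 CPM against 34.4 and 38.4 CPM, and the groups overlapped. Its log2 fold change of -0.24 (95% interval -0.69 to 0.22) did not pass (edgeR adjusted p = 0.380) and was 0.04 without wild-type replicate 1. Gclm (chromosome 3, 122245557 to 122270732), the modifier subunit of the same enzyme, was at 150.1 and 100.3 CPM against 74.1 and 65.9 CPM. Both wild-type values were above both Cd163-/- values, and Gclm fell by 0.82 on the log2 scale (SE 0.21, 95% interval -1.33 to -0.31, edgeR adjusted p = 0.0345). Gsr (chromosome 8, 33652523 to 33698163), the reductase that returns oxidised glutathione to its thiol form, stood at 306 CPM in both wild-type libraries and at 133 and 140 CPM in Cd163-/- macrophages. Gsr had the smallest spread between replicates of the 9 genes in wild-type macrophages, and it fell by 1.15 on the log2 scale (SE 0.13, 95% interval -1.45 to -0.84, edgeR adjusted p = 0.00321).

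Txnrd1 and Srxn1 serve the thioredoxin branch. Txnrd1 (chromosome 10, 82833951 to 82897712), the cytosolic selenoenzyme that reduces thioredoxin, was at 645 and 404 CPM in wild-type macrophages and at 154 and 159 CPM in Cd163-/- macrophages. Srxn1 (chromosome 2, 152105516 to 152111376), which repairs over-oxidised peroxiredoxins, was at 293 and 166 CPM against 88.1 and 96.6 CPM. For both genes wild-type replicate 1 was the highest library, the wild-type libraries differed widely from each other, and the Cd163-/- libraries lay below both. The log2 fold changes were -1.73 for Txnrd1 (SE 0.24, 95% interval -2.31 to -1.14, edgeR adjusted p = 0.00627) and -1.30 for Srxn1 (SE 0.27, 95% interval -1.95 to -0.64, edgeR adjusted p = 0.0197). Genes that overlap Txnrd1 in the annotation, Eid3 and Gm38560, had at most 68 and 67 counts in any library.

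Nqo1 (chromosome 8, 107388225 to 107403206), the quinone reductase often used as a readout of NRF2, was the one member with a higher mean in Cd163-/- macrophages. It had 63 and 33 counts, or 2.94 and 1.63 CPM, in wild-type and 172 and 91 counts, or 6.57 and 3.93 CPM, in Cd163-/- macrophages. Both Cd163-/- values were above both wild-type values, a separation that 69.3% of all genes tested showed in one direction or the other. The replicates of each group lay far apart. The log2 fold change was 1.22 (SE 0.39, 95% interval 0.26 to 2.17), with an edgeR adjusted p = 0.066. Of 12 alternatives 6 called it higher, with an adjusted p between 9.90e-05 and 0.324 over all of them. Without wild-type replicate 1 it was 1.70 (adjusted p = 0.0198).

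**Figure D2:**
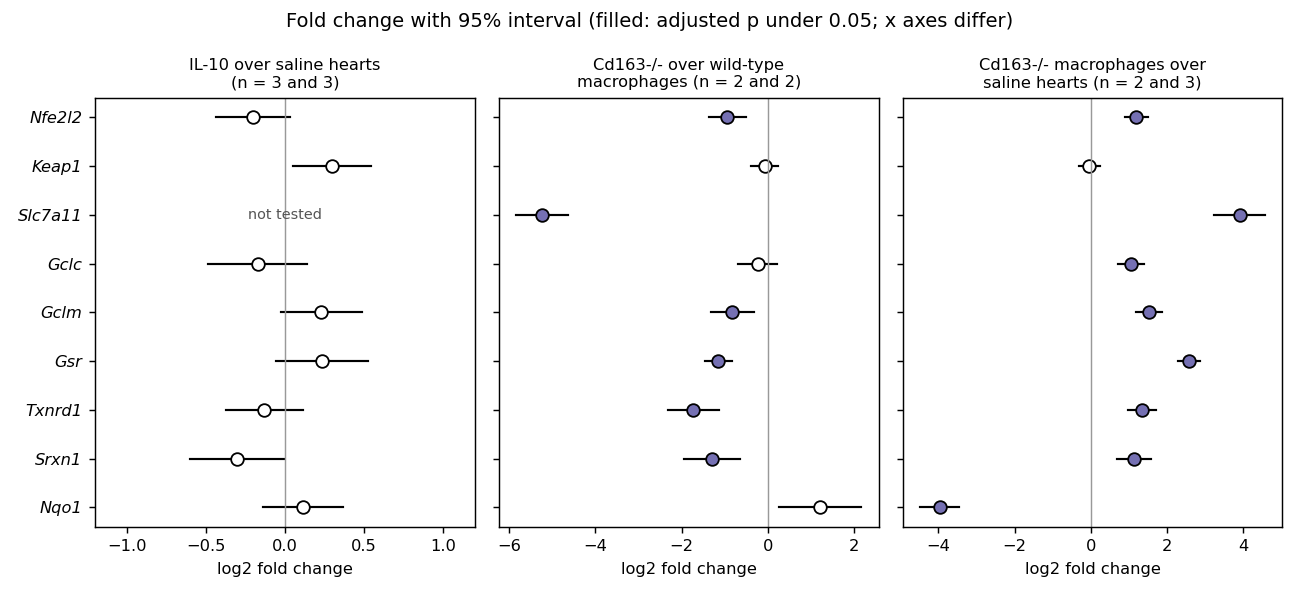
Log2 fold change of each of the 9 genes in the 3 comparisons, with 95% intervals from edgeR's quasi-likelihood test, filled points for called genes and x axes that differ. In macrophages Slc7a11 stands apart at -5.24, the intervals of Keap1 and Gclc cross 0 and that of Nqo1 lies above 0 without a call, and in hearts no member is called.

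Other genes of the pathway were read from 6 lists. Of 20 tested NRF2 regulators, 7 were lower and 1 higher in Cd163-/- macrophages (median log2 fold change -0.07). The largest of the named changes was in Maff, a small MAF partner of NRF2, at 7.84 ± 0.577 against 44.4 ± 8.24 CPM (n = 2 each). Maff fell by 2.48 on the log2 scale (SE 0.18, edgeR adjusted p = 0.00102). Mafg, another small MAF, fell by 0.67, Nfe2l1, a factor related to NRF2, by 0.98, and Trim21, a ubiquitin ligase, by 1.41. Bach1, a repressor that competes for the same elements, was at 88.7 ± 7.16 against 93.0 ± 0.727 CPM with overlapping groups, and its log2 fold change of -0.05 (adjusted p = 0.765) was 0.12 with library size alone. Sqstm1, the autophagy adaptor that binds KEAP1, was at 374 ± 20.7 against 665 ± 215 CPM and did not pass (log2 -0.81, edgeR adjusted p = 0.0546). It was called lower by the DESeq2 Wald test (adjusted p = 0.00581), with no filter, without wild-type replicate 2 and with the crossed pairing of the libraries as a block (adjusted p = 3.33e-05 to 0.0123).

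Of 27 tested further NRF2 target genes, 8 were lower and 4 higher (median log2 fold change -0.17). Txn1, the cytosolic thioredoxin that TXNRD1 reduces, fell from 313 ± 9.18 to 130.4 ± 10.8 CPM (log2 -1.25, SE 0.14, edgeR adjusted p = 0.00332). Esd, an esterase of formaldehyde breakdown, fell by 1.26 on the log2 scale and Abcc1, a transporter of glutathione conjugates, by 1.17. Hmox1, the haem oxygenase that is induced in macrophages taking up haemoglobin, fell from 1094 ± 35.4 to 705 ± 19.3 CPM (log2 -0.62, SE 0.16, edgeR adjusted p = 0.041), a call that was lost without either Cd163-/- library, with the replicate number as a block and with library size alone (adjusted p = 0.0941 to 0.225). Idh1, a cytosolic source of NADPH, rose from 133 ± 36.1 to 344 ± 22.4 CPM (log2 1.39, SE 0.21, edgeR adjusted p = 0.00774). The list of further targets therefore held changes in both directions. Without Cd163-/- replicate 1 it held 1 lower and 0 higher genes, and the regulators held 1 lower and 0 higher.

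In the list of glutathione synthesis and use, 4 of 19 tested genes were higher and 3 lower. Gpx3, the secreted glutathione peroxidase (log2 2.23), and Oplah, which recycles oxoproline (log2 1.88), rose, while Ggct, an enzyme of glutathione breakdown (log2 -1.08), and Glrx, the cytosolic glutaredoxin (log2 -1.54), fell. Without Cd163-/- replicate 1 this list held 1 higher and 0 lower genes and without replicate 2 it held 3 and 0, and Ggct and Glrx were not called in either case (adjusted p = 0.0561 to 0.125). In the thioredoxin and peroxiredoxin list 4 of 17 were higher and 2 lower. Prdx5, a peroxiredoxin, fell from 795 ± 148 to 160.3 ± 11.9 CPM (log2 -2.29, SE 0.20, edgeR adjusted p = 0.00157), and Sesn1 and Sesn3, the sestrins, rose by 2.21 and 1.72 on the log2 scale. Without Cd163-/- replicate 1 this list held 2 higher and 1 lower genes. The medians of these lists were 0.14 and 0.34, on the opposite side of 0 from the members' median.

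Of 11 tested genes for superoxide dismutases, catalase and NADPH oxidase, 4 were lower and 1 higher. Sod2, the mitochondrial superoxide dismutase, was at 1082 and 1403 CPM in wild-type and at 57.3 and 72.8 CPM in Cd163-/- macrophages. Among the named genes Sod2 had the largest fall after Slc7a11, with a log2 fold change of -4.24 (SE 0.24, edgeR adjusted p = 0.000567). Cybb, the catalytic subunit of the phagocyte NADPH oxidase, fell from 4750 ± 460 to 926 ± 120 CPM (log2 -2.34), and Ncf4, a cytosolic subunit of the same oxidase, by 1.89 on the log2 scale. Without Cd163-/- replicate 1 the list held 2 lower and 0 higher genes, and Cybb was not called (adjusted p = 0.0649).

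Genes of the ATF4 amino acid response were listed too, since ATF4 is a known activator of Slc7a11. Of 20 tested, 4 were lower and 1 higher, and 15 of the 20 had log2 fold changes above 0 (median 0.18). Cebpb, a C/EBP factor, fell by 1.40 on the log2 scale, Mthfd2, a mitochondrial folate enzyme, by 1.62 and Slc7a1, a cationic amino acid transporter, by 0.91. Ddit4, a stress-induced inhibitor of mTORC1, rose by 2.28. Over the left-out libraries the list held 1 to 5 lower and 0 to 5 higher genes, with 1 lower without either Cd163-/- library and 5 higher without wild-type replicate 2. Mthfd2 and Slc7a1 were not called without either Cd163-/- library (adjusted p = 0.0763 to 0.107), nor Ddit4 without replicate 1 (adjusted p = 0.0794). Atf4 itself, picked out after its value was seen, had a log2 fold change of -0.74 (edgeR adjusted p = 0.0177). Atf4 was not among the genes checked under the alternatives, and its part in the Slc7a11 difference was not tested.

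**Figure D3:**
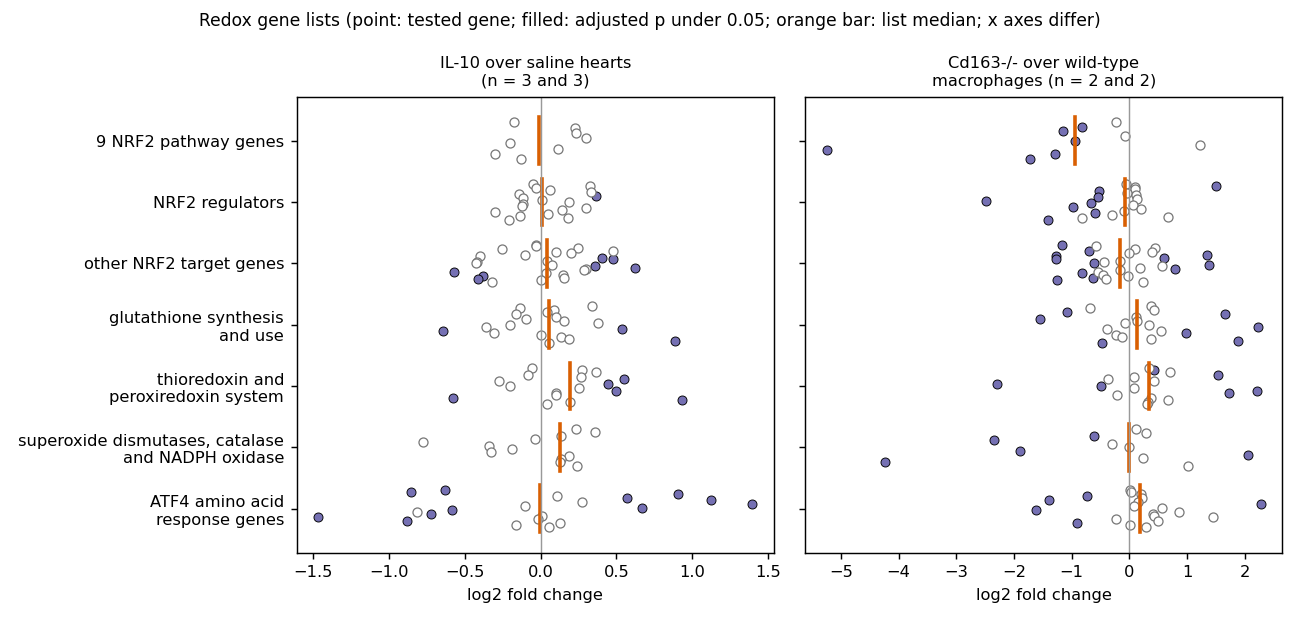
Log2 fold changes of the tested members and of the tested genes of 6 pathway lists in hearts and in macrophages, with 1 point per gene, filled points for called genes and an orange bar at the median. In macrophages the members' median is -0.94, while the medians of the 6 lists lie between -0.17 and 0.34.

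Cell type markers moved beside these differences. Of 8 tested fibroblast markers 6 were higher and 1 lower in Cd163-/- macrophages, with none of 10 at 0 in either group and the summed levels given above. Of 10 mesothelial markers 7 were higher, with a summed 86.0 to 139.8 CPM in wild-type and 274 to 353 CPM in Cd163-/- libraries. Of 16 macrophage markers 3 were higher and 4 lower, with a summed 22373 to 26815 CPM against 20817 to 22129 CPM. Among these, picked out after their values were seen, Cd14 had a log2 fold change of -3.33 and Mrc1 one of 1.76. Neutrophil markers summed to 7.27 to 17.0 CPM in wild-type and 1.77 to 2.25 CPM in Cd163-/- libraries. S100a9 and Mpo were among the 6 of 9 listed at 0 in wild type, and Ly6g among the 3 at 0 in Cd163-/-. The wild-type sum rests almost wholly on S100a8, as Camp had at most 14 counts and Ly6g at most 1. It therefore reads 1 gene and not the cell type. In such bulk libraries fewer cells of a type and less RNA per cell cannot be told apart, and the part of these cells in the members' differences was not tested.

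**Figure D4:**
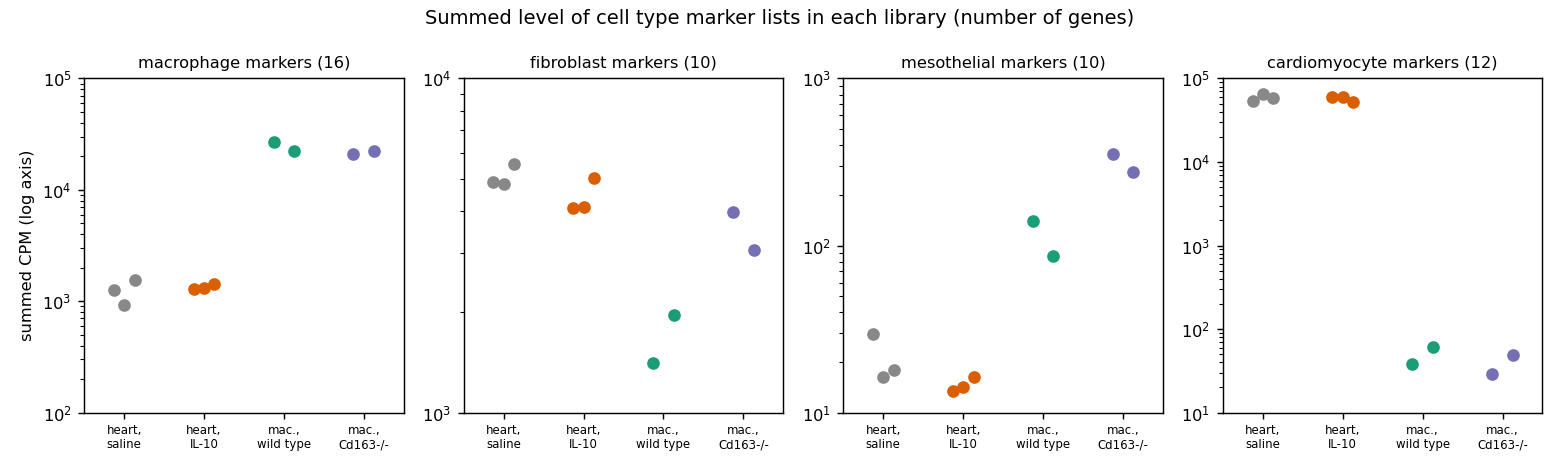
Summed CPM of the macrophage, fibroblast, mesothelial and cardiomyocyte marker lists on log axes, with a point per library. Fibroblast and mesothelial markers are higher in both Cd163-/- macrophage libraries than in both wild-type libraries, and cardiomyocyte markers set the hearts apart from the macrophage libraries.

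The heart comparison asks what IL-10 changed in Cd163-/- mice. None of the 8 tested members passed the test in either direction. Of these 8, 2 had an unadjusted p under 0.05, as did 3877 of all 13718 genes tested. DESeq2 and limma-voom called no member either. Over all 13718 genes tested, 6.86% were called higher and 6.7% lower, or 13.6% in either direction (edgeR quasi-likelihood test). Scaling by library size alone gave 551 higher and 993 lower genes in place of 941 and 919. The members' median log2 fold change was -0.01, as was that of all genes, and single members ran from -0.30 to 0.30. The 95% intervals of the members lay between -0.60 and 0.55.

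Nfe2l2 was at 89.8, 104 and 105 CPM after saline and at 82.7, 83.1 and 94.7 CPM after IL-10. The lowest saline heart lay inside the IL-10 range, and the log2 fold change of -0.20 (95% interval -0.44 to 0.03) did not pass (edgeR adjusted p = 0.241). Keap1 was at 27.3, 29.3 and 26.8 CPM against 32.1, 33.1 and 37.7 CPM. All 3 IL-10 hearts were above all 3 saline hearts, a separation that 31.5% of tested genes showed in one direction or the other. The log2 fold change of Keap1 was 0.30 (SE 0.12, 95% interval 0.05 to 0.55, edgeR adjusted p = 0.108).

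Slc7a11 was close to the floor in hearts, with 15, 7 and 4 counts in the saline hearts and 5, 6 and 6 in the IL-10 hearts, and it stayed under the filter on low counts. It was therefore not tested, and counts this low cannot show whether the groups differ. Gclc was at 18.5, 16.8 and 17.2 CPM against 13.9, 18.2 and 14.7 CPM, with overlapping groups (log2 -0.17, 95% interval -0.48 to 0.14, edgeR adjusted p = 0.475). Gclm was at 23.9, 22.4 and 26.4 CPM against 28.6, 28.7 and 28.5 CPM. All 3 IL-10 hearts were nearly equal and above the saline hearts, a separation that 31.5% of tested genes showed in one direction or the other. The log2 fold change of 0.23 (95% interval -0.02 to 0.48) did not pass (edgeR adjusted p = 0.225). Gsr was at 27.1, 19.9 and 21.7 CPM against 29.3, 26.8 and 25.0 CPM, overlapping through saline replicate 1 (log2 0.23, 95% interval -0.06 to 0.52, edgeR adjusted p = 0.289).

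Txnrd1 was at 63.5, 55.2 and 65.0 CPM against 51.9, 54.6 and 62.2 CPM (log2 -0.13, 95% interval -0.37 to 0.11, edgeR adjusted p = 0.491). Srxn1 was at 45.3, 33.6 and 47.3 CPM against 36.6, 29.5 and 36.7 CPM (log2 -0.30, SE 0.14, 95% interval -0.60 to -0.01, edgeR adjusted p = 0.164). Nqo1 was at 74.4, 83.6 and 90.3 CPM against 104, 86.5 and 79.8 CPM (log2 0.11, 95% interval -0.14 to 0.37, edgeR adjusted p = 0.574). All 3 genes had overlapping groups. Saline replicate 2 was the lowest saline heart for Txnrd1 and Srxn1, and without it Srxn1 was called lower (log2 -0.44, edgeR adjusted p = 0.0377).

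Around the members, single genes of the lists were called in IL-10 hearts, where 13.6% of all genes tested were called in either direction. Of 27 tested further NRF2 targets 4 were higher and 3 lower. Mgst1, a membrane-bound glutathione transferase, rose from 37.6 ± 2.02 to 58.2 ± 7.28 CPM (log2 0.62, SE 0.12, edgeR adjusted p = 0.00251), Fth1, the ferritin heavy chain, from 1315 ± 41.5 to 1846 ± 53.7 CPM (log2 0.48) and Fech, which inserts iron into haem, from 119 ± 8.37 to 159 ± 13.0 CPM (log2 0.41). Fech was not called with library size alone, nor when either saline heart 1 or 3, or else IL-10 heart 1 or 2, was left out (adjusted p = 0.0656 to 0.0834), and Fth1 not without saline replicate 1 or IL-10 replicate 2 (adjusted p = 0.0779 and 0.0503). Pgd, an NADPH-producing enzyme of the pentose phosphate pathway, fell from 46.4 ± 9.49 to 31.4 ± 1.91 CPM (log2 -0.57), a call lost without saline replicate 3 or IL-10 replicate 2 (adjusted p = 0.0778 and 0.0742). Hmox1 was at 60.7, 38.9 and 90.7 CPM after saline and at 26.4, 56.6 and 59.7 CPM after IL-10, with overlapping groups (log2 -0.43, edgeR adjusted p = 0.322). With no filter on low counts Hmox1 was called lower (log2 -0.42, adjusted p = 0.0115). The counts rest on single hearts: without saline replicate 1 there was 1 higher target, and without saline replicate 3 there were 0 lower.

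Of 19 tested NRF2 regulators 1 was higher and 0 lower. That gene was Ep300, a histone acetyltransferase that acts with NRF2 (log2 0.37, edgeR adjusted p = 0.0375), and it was no longer called when any 1 of the 6 hearts was left out, with the replicate number as a block or with library size alone (adjusted p = 0.0637 to 0.119). Cul3, the scaffold of the ligase that KEAP1 serves, was at 125 ± 10.5 against 99.0 ± 7.36 CPM and did not pass (log2 0.33, edgeR adjusted p = 0.0585), although the DESeq2 Wald test called it higher (adjusted p = 0.0381), as did edgeR without IL-10 replicate 1 (adjusted p = 0.0428). In the glutathione list 2 of 19 were higher, Oplah (log2 0.89) and Gpx4, the peroxidase of lipid hydroperoxides, at 673 ± 91.3 against 461 ± 15.1 CPM (log2 0.54, edgeR adjusted p = 0.00928). The 1 lower gene was Gpx7 (log2 -0.65), a peroxidase of the endoplasmic reticulum. Gpx7 was not called by limma-voom (adjusted p = 0.0639) or without saline replicate 3 (log2 -0.33, adjusted p = 0.26) or any of the 3 IL-10 hearts. Gpx4 was not called without saline replicate 1 or IL-10 replicate 2 (adjusted p = 0.0519 and 0.0547).

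In the thioredoxin and peroxiredoxin list 4 of 17 were higher and 1 lower, with a median of 0.19. Prdx3, the mitochondrial peroxiredoxin, rose from 247 ± 16.2 to 363 ± 42.8 CPM (log2 0.55, SE 0.12, edgeR adjusted p = 0.0068) and Prdx5 from 173 ± 10.4 to 237 ± 30.5 CPM (log2 0.45). Txnip, a thioredoxin inhibitor, rose with overlapping groups (log2 0.93), and Txndc5, a protein disulfide isomerase, fell by 0.58 on the log2 scale. Without saline replicate 3 or IL-10 replicate 2 the list held 1 higher and 0 lower genes, and Prdx5, Txnip and Txndc5 were each not called (adjusted p = 0.0541 to 0.0952). Without saline replicate 1 or IL-10 replicate 1 it held 2 higher. Txnip was also not called by the DESeq2 Wald test (adjusted p = 0.0715), nor Prdx5 with library size alone (adjusted p = 0.0525). Of the 12 tested genes for superoxide dismutases, catalase and NADPH oxidase 0 were called with edgeR, and 0 had an unadjusted p under 0.05. In the ATF4 list 5 of 20 were higher and 6 lower, among them Cebpb (log2 1.13), Ddit4 (log2 1.40) and Pycr1, a proline synthesis enzyme (log2 -1.47). Leaving out saline heart 1 left 1 lower gene in this list, as did leaving out IL-10 heart 1 or heart 2, and without saline replicate 1 the higher ones came to 3.

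In the hearts, cell cycle genes summed to 156 to 210 CPM after saline and 70.8 to 84.4 CPM after IL-10, with 15 of 16 lower, and red blood cell genes to 687 to 1405 against 357 to 649 CPM, with 5 of 5 tested lower. Macrophage markers summed to 919 to 1535 against 1276 to 1438 CPM and cardiomyocyte markers to 54204 to 64366 against 51688 to 60268 CPM, with overlapping groups. Of 16 macrophage markers 0 were called higher and 1 lower, and of 12 cardiomyocyte markers 3 higher and 1 lower. Fibroblast markers had 3 of 10 higher and 4 lower, and endothelial markers 0 of 10 higher and 3 lower. Of 5 tested mesothelial markers 0 were higher and 1 lower. None of the macrophage, cardiomyocyte and cell cycle genes was at 0 in any heart, and 1 of the 7 red blood cell genes was at 0 in each of IL-10 replicates 1 and 2. Their part in the values above was not tested.

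The members did not move as a block from heart to heart. Over the 6 hearts the Pearson r between single pairs of the 8 tested members ran from -0.92 for Nfe2l2 with Gsr to 0.77 for Txnrd1 with Srxn1. A score, the mean over the 8 genes of each gene's z-scored log2 CPM, was 0.03, -0.46 and 0.33 in the saline hearts and -0.03, -0.04 and 0.18 in the IL-10 hearts. Saline replicate 2 was the lowest and saline replicate 3 the highest heart. The members' own r with the score were 0.64 for Txnrd1, 0.59 for Gclm and Srxn1, 0.28 for Gsr, and -0.05 to 0.04 for the other 4.

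The genes most like the score over the 6 hearts were Orai2 (r = 0.99), a store-operated calcium channel gene, Adgre1 (r = 0.98), which encodes the macrophage antigen F4/80, Ube2z (r = 0.97), Shb (r = 0.97) and Csf1r (r = 0.97), the receptor of macrophage colony-stimulating factor. The most opposite were Ppp2r5c (r = -0.99), Kbtbd2 (r = -0.98), Uevld (r = -0.98), Ccnt1 (r = -0.98) and Elac1 (r = -0.95). They were picked from 10324 genes that averaged 5 CPM or more, of which 98 had an r beyond 0.9 in either direction. Being picked for it, they have an extreme r by selection. Single members had lower r with Adgre1, from -0.21 for Gclc to 0.65 for Gclm. Of the summed marker lists, macrophage markers had r = 0.98 with the score, cardiomyocyte markers -0.71, and the other 7 lists between -0.53 and 0.42. With 6 points that share depth and composition, these values describe the hearts and carry no test, and the part of macrophage content was not tested.

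**Figure D5:**
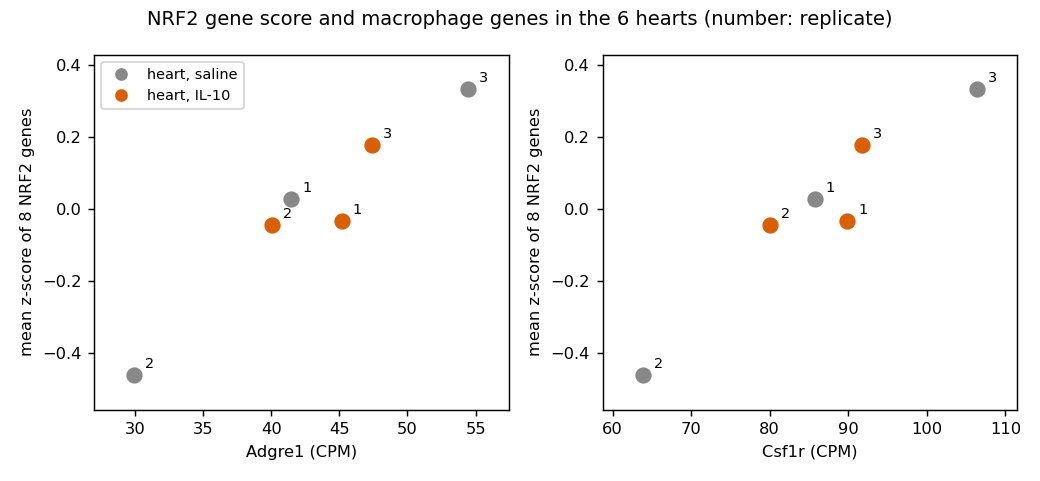
Mean z-score of the 8 tested members in each of the 6 hearts against the level of Adgre1 (left) and Csf1r (right) in CPM, coloured by treatment and numbered by replicate. Saline replicate 2 is lowest and saline replicate 3 highest on both axes, with r = 0.98 for Adgre1 and 0.97 for Csf1r over the 6 hearts. Both genes were picked from 10324 for a high r with this score, so these r are no test.

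Set beside saline hearts labelled with the same genotype, Cd163-/- macrophages had higher levels of 7 of the 9 members and a lower level of Nqo1. Over all 15339 genes tested, 34.9% were called higher and 37% lower, or 71.9% in either direction (edgeR quasi-likelihood test), so calls were common everywhere. Scaling by library size alone gave 8093 higher and 3770 lower genes in place of 5350 and 5677, with the median of all genes moved to 0.64. Organ, culture, dexamethasone and surgery differ together between these groups and cannot be told apart.

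Slc7a11 had the largest rise of the members, with a log2 fold change of 3.91 (SE 0.31), followed by Gsr at 2.58 (SE 0.13), Gclm at 1.53, Txnrd1 at 1.35, Nfe2l2 at 1.19, Srxn1 at 1.13 and Gclc at 1.06. Each of these 7 was called under all 12 alternatives. Nqo1 was at 74.4 to 90.3 CPM in saline hearts and at 3.93 and 6.57 CPM in Cd163-/- macrophages, a 15.7-fold lower level (log2 -3.97, SE 0.24, 95% interval -4.49 to -3.45, edgeR adjusted p = 4.37e-09). Nqo1 thus ran opposite to the other target genes between the sources. Keap1 had a log2 fold change of -0.03 (95% interval -0.30 to 0.23, edgeR adjusted p = 0.812), which was 0.63 with library size alone and called higher there (adjusted p = 0.000521).

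Among further NRF2 targets 20 of 27 tested were higher in Cd163-/- macrophages than in saline hearts and 4 lower (median log2 fold change 1.15). Hmox1 was at 719 and 692 CPM against 38.9 to 90.7 CPM (log2 3.47, SE 0.33), and Tkt and Pgd, of the pentose phosphate pathway, rose by 2.99 and 2.81 on the log2 scale. Me1, the NADP-dependent malic enzyme, was lower (log2 -2.62). The glutathione list went the other way, with 14 of 19 lower and 2 higher (median -1.14), as did the thioredoxin and peroxiredoxin list with 10 of 17 lower and 1 higher (median -1.08). Prdx3 fell by 2.73 and Txn2, the mitochondrial thioredoxin, by 1.65 on the log2 scale. Slc3a2, the partner of xCT, was higher at 190 ± 5.16 against 39.7 ± 6.21 CPM (log2 2.25, SE 0.13, edgeR adjusted p = 3.74e-09).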

How the data were processed

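Read counts per gene were analysed in 6 heart and 4 macrophage libraries. Libraries were made from poly(A) RNA with the unstranded NEBNext Ultra RNA kit, per the labels' protocols, so reads of overlapping genes on opposite strands cannot be told apart. The protocol text names livers as the RNA source, which none of the sample labels does. The authors, per the submitters' processing notes, aligned reads with HISAT2 (2.2.1) and made the deposited counts with featureCounts, whose version is not given. Those notes list both GRCm39 and mm10, and which of them the counts used is unsettled. Coordinates are those of GENCODE M21 on GRCm38, which named 52081 of 55357 gene identifiers.

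In R 4.3.3, edgeR 4.0.16 kept genes by filterByExpr (minimum count 10, minimum total 15), scaled by TMM and ran the quasi-likelihood test, with Benjamini-Hochberg adjustment over all genes tested and calls at an adjusted p under 0.05. Hearts and macrophages were fitted apart. The comparison across sources used all 10 libraries in a 4-group model. A standard error is the absolute log2 fold change over the square root of F, and 95% intervals use the test's denominator degrees of freedom. Nothing states that replicates are separate animals or cultures, and a p-value here covers only sample-to-sample spread, possibly technical. The procedure was tested on simulated data.

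The members, lists and the rule for named genes were chosen with earlier results of these data known. The rule takes all members, up to 4 genes of smallest p per list and comparison, Hmox1, Bach1, Sqstm1 and Slc3a2, and the 5 genes most and least like the members' score (log2 CPM, prior count 2). Alternatives were DESeq2 size factors, library size alone, mitochondrial genes left out, no filter, the DESeq2 Wald test (1.42.0), limma-voom (limma 3.58.1), the replicate number as a block and leaving out each library. Where that left 1 library in a group, it was assumed to vary like the others.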

Additional observations from a re-analysis of the deposited data

How the results depend on the processing

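Under the alternatives, no heart member changed direction, and only Srxn1 changed its call (1 member lower in place of 0, without saline replicate 2). Leaving out each heart moved the genes called between 897 and 1968 (1860 with all), those higher between 450 and 1082 and those lower between 447 and 1012. Library size alone gave 551 higher. In macrophages, leaving out each library gave 734 to 3811 called genes (3663 with all), 360 to 1838 higher, 374 to 1973 lower, 1 to 6 members lower and 0 to 1 higher. Library size alone gave 1220 lower genes. In macrophages 1 member, Nqo1, was called higher with library size alone, no filter, the DESeq2 Wald test and the replicate block. In the comparison across sources, library size alone gave 8093 higher and 3770 lower genes. With library size alone or mitochondrial genes left out, 58 of the members' group means moved by their SD or more and 14 did not. Signs turned for genes that were not called: Slc3a2 in hearts (log2 0.05) was -0.0088 with library size alone and ran from -0.047 (without saline replicate 2) to 0.19 over the left-out hearts. In macrophages, Keap1 was 0.10 with library size alone and -0.17 to 0.023 over the left-out libraries (above 0 without wild-type replicate 2), Gclc was -0.47 to 0.037 (above 0 without wild-type replicate 1), and Bach1 was 0.12 with library size alone and -0.14 to 0.019 (above 0 without Cd163-/- replicate 1). Keap1 across sources was 0.63 with library size alone, 0.057 with no filter and -0.085 to 0.031 over the left-out libraries (above 0 without Cd163-/- replicate 2). The cause of these changes was not tested. Slc7a11, at 4 to 15 counts in the hearts, was under the count filter there.

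In hearts, replicate numbers showed no sign of pairing: deviations of same-numbered libraries had r = -0.18, 0.04 and 0.00. In macrophages r was -0.11 for same-numbered and 0.11 for crossed libraries. With 2 libraries a group the deviations are mirror images, so these r cannot show whether the macrophage libraries were paired. With the replicate number as a block, 1523 genes were called in hearts, 2656 in macrophages and 10623 across sources. There, 6 members were lower in macrophages, and 7 were higher and 1 lower across sources. The crossed pairing of the macrophage libraries, chosen after the data were seen, called 4595 genes, with 6 members lower and 1 higher.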
